A study of Mus musculus with 87 samples.

Results

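Inflammatory cell death genes were followed in the mouse ventral midbrain after injection of interferon-γ (IFN-γ). The 10 genes were Ripk1, Ripk3, Mlkl, Zbp1, Casp1, Casp4, Gsdmd, Casp8, Fas and Xaf1. They were taken by symbol from a table of 48526 genes, and the list was chosen with earlier results of these data known. Each symbol had 1 row in the table of sorted bulk wells and 1 in the table of single nuclei.

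Wild-type C57BL/6J mice of 6 to 12 months received 40 ng of recombinant mouse IFN-γ in 400 nL of saline, or saline alone, by stereotactic injection into the ventral midbrain. In the bulk experiment, nuclei were sorted by NeuN, a nuclear protein of neurons encoded by Rbfox3, into neuronal (NeuN+) and non-neuronal (NeuN−) wells. Per fraction and time (6, 24, 48 and 72 h) there were 6 wells from IFN-γ mice, while wells from saline mice numbered 6 at 24 h and 4 otherwise, which makes 42 wells a fraction. The second experiment profiled single nuclei at 48 h from 1 saline and 2 IFN-γ mice of the same strain and genotype.

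The genes belong to linked routes by which a cell under attack can die. RIPK1 is a kinase at the crossing of these routes: with caspase-8 active it can drive apoptosis, and with RIPK3 it can drive necroptosis, in which RIPK3 activates MLKL and MLKL breaks the plasma membrane. ZBP1 senses Z-form nucleic acids and engages RIPK3. Caspase-1 and caspase-4 (the gene also known as caspase-11 in mice) cleave gasdermin D, whose fragment forms membrane pores in pyroptosis. Fas is a death receptor upstream of caspase-8, and XAF1 counters the caspase inhibitor XIAP. Promoters of interferon targets often hold GAS or ISRE elements, the latter bound by IRF factors, and several of these genes are known interferon targets in immune cells.

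Promoter windows from RefSeq (GRCm38.p6, 250 bases before to 50 after a start site) were found for 8 of the 10 genes, as 10 windows. Zbp1 and Gsdmd had no entry. Both strands were searched for GAS (TTCNNNGAA), IRF-E (GAAANNGAA) and ISRE (the letters of IRF-E with 1 more A after them, so that every ISRE holds an IRF-E). Among 32851 promoter windows of the same length, 8.3% held GAS, 3.44% ISRE and 8.56% IRF-E. A match was found in 3 of the 8 genes. The window of the second Ripk1 start held GAS at −108 and −11 and an ISRE at −5, counted in bases from the start site to the first letter of the match. Fas held a GAS at −93 and Ripk3 an IRF-E at 14. The windows of 4 genes called in the wells at 6 h are given, Ripk1 with its matches in capitals and Mlkl, Xaf1 and Casp4 with no match. They lie at chr13:34002624-34002923 (plus strand), chr8:111338156-111338455 (minus strand), chr11:72301379-72301678 (plus strand) and chr9:5308599-5308898 (plus strand).
Ripk1: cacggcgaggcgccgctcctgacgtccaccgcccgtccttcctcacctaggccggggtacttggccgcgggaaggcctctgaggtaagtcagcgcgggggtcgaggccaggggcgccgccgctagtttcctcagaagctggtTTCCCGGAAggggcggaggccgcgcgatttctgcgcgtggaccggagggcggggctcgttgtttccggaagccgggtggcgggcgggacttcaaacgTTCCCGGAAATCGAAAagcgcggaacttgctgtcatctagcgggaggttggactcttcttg
Mlkl: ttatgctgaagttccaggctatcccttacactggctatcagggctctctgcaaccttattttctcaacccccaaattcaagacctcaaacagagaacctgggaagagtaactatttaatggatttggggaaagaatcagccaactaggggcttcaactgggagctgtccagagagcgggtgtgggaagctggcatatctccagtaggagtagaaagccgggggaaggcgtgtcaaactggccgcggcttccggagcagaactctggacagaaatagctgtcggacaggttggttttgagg
Xaf1: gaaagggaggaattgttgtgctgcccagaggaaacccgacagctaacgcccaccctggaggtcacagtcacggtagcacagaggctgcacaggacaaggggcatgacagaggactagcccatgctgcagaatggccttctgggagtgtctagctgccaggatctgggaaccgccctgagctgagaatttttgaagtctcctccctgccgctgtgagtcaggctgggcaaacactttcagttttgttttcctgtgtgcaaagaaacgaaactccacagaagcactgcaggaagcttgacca
Casp4: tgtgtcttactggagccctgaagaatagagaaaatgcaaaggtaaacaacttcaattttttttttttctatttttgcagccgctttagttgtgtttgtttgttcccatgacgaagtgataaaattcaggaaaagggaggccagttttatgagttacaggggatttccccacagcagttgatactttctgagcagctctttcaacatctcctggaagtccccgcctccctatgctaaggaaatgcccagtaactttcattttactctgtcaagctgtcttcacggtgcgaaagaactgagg
A missing match says only that these letters were not in this window.

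The deposited values are counts of unique molecular identifiers (UMIs), and levels are given in CPM, in which a well's counts are scaled to the same total in each well. Totals ran from 20962 to 301445 in NeuN− and from 277113 to 1684374 in NeuN+ wells, so 1 count weighed more in a NeuN− well. The deposited labels read NeuN+ for all 84 wells, and the fraction was taken from the study's sample sheet by well barcode. Rbfox3 stood at 93.8 to 206 CPM in wells listed as NeuN+ and at 0 to 22.8 CPM in those listed as NeuN−, apart from 1 saline well of 24 h at 130 CPM. Wells of 1 group came from 2 to 3 mice by the study's account, and which wells shared a mouse was not given, so p-values measure the spread between wells, which may be technical. Summed over a well, fewer cells of a type and less RNA per cell cannot be told apart. The mice also differed by sex-linked RNA: Xist was 938 to 1266 CPM in NeuN+ IFN-γ wells of 6 h and 30.1 to 74.9 CPM in those of 24 h, and 21 to 1177 CPM in the saline wells of 24 h. At 6 h the saline wells also held more Y-linked RNA, with Eif2s3y at 65.0 to 80.9 CPM in NeuN+ saline and 0 to 2.00 CPM in NeuN+ IFN-γ wells, and at 110 to 160 against 0 to 9.65 CPM in NeuN− wells. The effect of time, and that of IFN-γ at 6 h, therefore cannot be told apart from differences between the mice used. At 24 h the saline wells mixed low and high Xist (NeuN+ median 801 CPM) while the IFN-γ wells were all low. The effect of IFN-γ at 24 h was thus in part confounded with such differences as well.

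In saline wells, 7 of the 10 genes had enough counts to test and all 7 were higher in NeuN− than in NeuN+ wells. A gene was called where its log2 change exceeded 1 with an adjusted p under 0.01 (edgeR quasi-likelihood test with time as covariate, Benjamini-Hochberg adjusted), and 12.6% of all genes tested met it in this direction. All genes together split into 2373 higher and 2795 lower, and into 1892 and 3527 when the scaling factors came from all genes tested, which moved the median of all genes from −0.096 to −0.35 and left the 7 calls. Xaf1 pooled over 18 saline wells was 46.7 CPM in NeuN− and 3.91 CPM in NeuN+ nuclei, a ratio of 11.9 (95% counting interval 8.68 to 16.5) and a log2 difference of 3.44 ± 0.28 (SE, adjusted p = 4.61e-20, edgeR). Ripk1 had the smallest ratio of the 7, at 34.3 against 13.3 CPM, or 2.57 (1.94 to 3.37). It was also the gene with a count in all 36 saline wells.

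The other ratios rested on few counts. Casp4, with 15 and 10 counts, stood at 7.46 against 0.551 CPM, a ratio of 13.5 (5.68 to 33.7). Casp1 had 7 and 4 counts and a ratio of 15.8 (4.01 to 73.5), and Fas 9 and 6 counts and a ratio of 13.5 (4.30 to 46.2). Casp8 and Mlkl had ratios of 9.02 (3.98 to 20.4) and 8.20 (3.12 to 21.3). Gsdmd was left out of the test with 6 counts in NeuN− and 1 in NeuN+ wells, a ratio of 54.1 (6.56 to 2489). Zbp1 had 2 and 1 counts and Ripk3 0 and 1 in the 36 saline wells, so neither gene had a level above the limit of 3 counts. Intervals cover counting error alone.

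**Figure D1:**
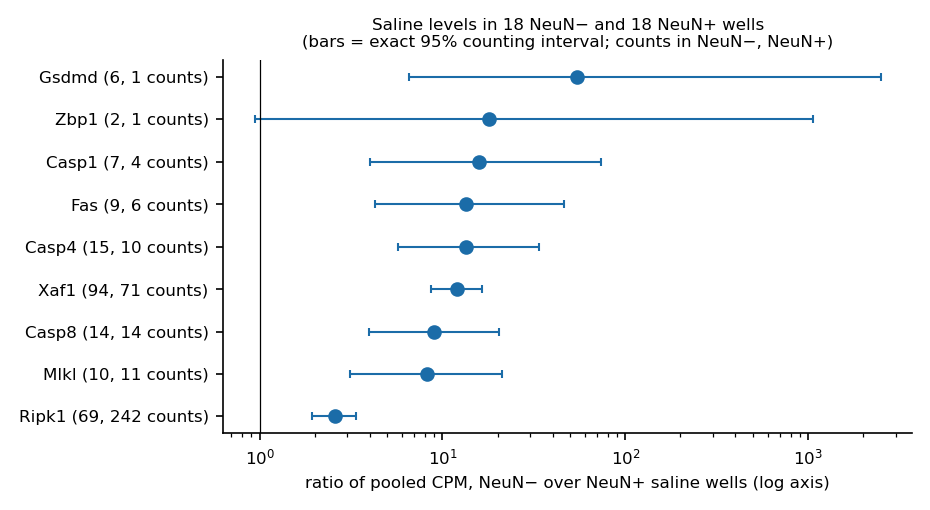
Ratio of pooled CPM in NeuN− over NeuN+ saline wells on a log axis for each gene with a count in both fractions, which leaves out Ripk3. Bars are exact 95% counting intervals, and the labels give the counts behind each ratio. Zbp1 and Gsdmd are shown but were not tested. The ratio for Ripk1 is 2.57, and those of the other 6 genes tested lie between 8.20 and 15.8.

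After IFN-γ, 4 of the 5 genes tested in NeuN− wells at 6 h were called higher than saline (Mlkl, Casp4, Ripk1 and Xaf1), where 3.21% of all genes tested were called higher. At 24 h 3 of 8 were called higher (Mlkl, Xaf1 and Zbp1, against 3.43% of all genes). In NeuN+ wells 2 of 5 were called higher at 6 h (Ripk1 and Xaf1, against 0.774%) and 3 of 7 at 24 h (Mlkl, Xaf1 and Zbp1, against 1.31%). None of the genes tested was called lower at any time. Over all genes, 187 of 9639 were called lower at 6 h and 308 of 10486 at 24 h in NeuN− wells. In NeuN+ wells these were 39 of 16287 and 36 of 17319. Most of the 10 genes had few counts in saline wells, so a fall could hardly have been called. At 48 h 0 of 5 NeuN− and 0 of 4 NeuN+ genes were called by edgeR, where 0.603% and 0.126% of all genes were, and at 72 h 0 of 4 in each fraction, where 0.429% and 0.249% were. Of the genes tested, 2 in each fraction at 48 h and 1 in each at 72 h had an unadjusted p under 0.05, and DESeq2 called 0 as well. The median log2 change of the genes tested was 2.47 at 6 h and 1.94 at 24 h in NeuN− wells, where the median over all genes tested was −0.078 and −0.0019. In NeuN+ wells it was 1.53 and 1.35, where that of all genes was −0.019 and −0.018. The limit of 10 counts for a test sums both groups, so a gene near 0 in saline passed it through its IFN-γ wells. Examples are Mlkl in NeuN− wells at 6 h (117 against 3 counts) and Zbp1 in NeuN+ wells at 24 h (24 against 0). The counts called and the medians leave out genes with few counts in both groups and may be raised by this. They may also be raised because the genes were chosen with earlier results of these data known.

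Interferon signalling moved in the same wells. Irf1, a transcription factor known to be induced by interferons, was 318 to 455 CPM in NeuN− IFN-γ wells at 6 h and 0 to 10.0 CPM in saline wells. In NeuN+ wells it was 30.8 to 48.0 CPM against 0 to 1.07 CPM. Summed levels of cell type markers moved too. The sum of 12 oligodendrocyte markers in NeuN− wells was 5486 to 6867 CPM with IFN-γ at 6 h and 3476 to 4148 CPM at 24 h, below 9638 to 12156 CPM in saline wells of all times. That of 26 microglial markers was 811 to 1104 CPM at 6 h against 1709 to 1901 CPM, and 1606 to 2496 against 1364 to 2453 CPM at 24 h. That of 12 astrocyte markers was 2896 to 3945 CPM at 24 h against 1054 to 2242 CPM. No marker of the oligodendrocyte and astrocyte lists was at 0 in these NeuN− groups, and 0 to 2 microglial markers were. The 9 markers of T and NK cells summed to 0 to 19.3 CPM in NeuN− IFN-γ wells at 6 h and 7.25 to 51.4 CPM in saline wells, with 8 and 6 of them at 0. In NeuN+ wells at 6 h the oligodendrocyte markers were 239 to 290 CPM with IFN-γ against 414 to 549 CPM, and 3 markers of VGLUT2 neurons 1536 to 1684 against 1841 to 2045 CPM. At 24 h the microglial markers were 253 to 319 against 143 to 221 CPM, the astrocyte markers 498 to 567 against 216 to 472 CPM, and 3 markers of GABA neurons 107 to 161 against 206 to 323 CPM. The part of these shifts in the calls of either fraction was not tested. Medians of the oligodendrocyte markers in NeuN+ IFN-γ wells were 278 CPM at 6 h and 438 CPM at 24 h. In NeuN− IFN-γ wells they were 6308 and 3900 CPM. RNA of these markers was thus present in NeuN+ wells, and the part of non-neuronal RNA in NeuN+ levels and calls was not tested.

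Ripk1 (chr13:34002363-34037147, plus strand) encodes the kinase at the crossing of the routes and had 1225 counts over the 84 wells. In NeuN− wells at 6 h the IFN-γ wells ran from 95.4 to 194 CPM with a median of 160 CPM, and the saline wells were 8.56, 30.0, 36.3 and 38.2 CPM. Every IFN-γ well stood above every saline well, with a log2 change of 2.47 ± 0.36 (SE, adjusted p = 8.28e-10, edgeR). By 24 h the lowest, median and highest IFN-γ wells were 60.9, 86.2 and 113 CPM, against 14.8, 42.2 and 58.6 CPM in saline. The groups again did not overlap, but the change of 1.17 ± 0.37 missed the limit (adjusted p = 0.0122, edgeR). At 48 h the lowest, median and highest IFN-γ wells were 28.7, 52.3 and 77.1 CPM and at 72 h 12.5, 41.0 and 76.3 CPM, and both groups overlapped the saline wells, with changes of 0.81 ± 0.46 (adjusted p = 0.555, edgeR) and 0.17 ± 0.43 (adjusted p = 0.965, edgeR).

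Ripk1 also rose in NeuN+ wells at 6 h. There the lowest, median and highest IFN-γ values were 30.8, 39.5 and 51.7 CPM, and the saline wells were 3.61, 8.84, 12.9 and 23.6 CPM. No well overlapped, and the change was 1.44 ± 0.24 (adjusted p = 2.41e-05, edgeR). At 24 h IFN-γ wells ran from 19.7 to 34.6 CPM with a median of 25.1 CPM, against 4.87, 15.2 and 20.1 CPM in saline. The change of 0.91 ± 0.21 passed the adjusted p (0.00404, edgeR) but not the fold limit, with 5 of 6 IFN-γ wells above the highest saline well. Changes at 48 and 72 h were 0.12 ± 0.35 and 0.11 ± 0.24. Exons of Ripk1 overlap those of Serpinb6a on the opposite strand and of Gm17084 on the same strand, and whether the counting used strand is not given in the sources used here, so some of its counts may belong to these genes.

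Mlkl (chr8:111311797-111338177, minus strand), the membrane-breaking effector of necroptosis, went from near 0 in saline to its highest values in NeuN− wells. At 6 h the IFN-γ wells had a lowest, median and highest level of 84.8, 154 and 228 CPM (117 counts), and the saline wells were 0, 0, 7.25 and 19.1 CPM (3 counts). The groups were far apart, with a ratio of pooled levels of 24.5 (95% counting interval 8.19 to 121) and a log2 change of 4.35 ± 0.52 (adjusted p = 1.39e-14, edgeR). By 24 h the IFN-γ wells were 44.2, 113 and 169 CPM (lowest, median and highest, 114 counts), and the saline wells ran from 0 to 14.4 CPM with a median of 0 (2 counts). The ratio was 32.0 (8.65 to 267) and the change 4.57 ± 0.60 (adjusted p = 2.53e-14, edgeR). By 48 h the IFN-γ wells had come down to 0 to 34.5 CPM, with a median of 15.3 CPM, and the saline wells were 0, 0, 0 and 8.42 CPM. The groups overlapped and the change of 2.52 ± 1.30 was not called (adjusted p = 0.333, edgeR). At 72 h values of 0 to 18.8 CPM overlapped the saline wells at 0, 6.61, 7.44 and 14.4 CPM, with a change of 0.30 ± 1.00.

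In NeuN+ wells Mlkl had its highest values at 24 h, and the part of non-neuronal RNA in its NeuN+ values was not tested. At 6 h the IFN-γ wells ran from 4.74 to 10.8 CPM with a median of 5.44 CPM, and the saline wells were 0, 0, 3.52 and 3.61 CPM. No well overlapped, but the change of 2.18 ± 0.67 was not called (adjusted p = 0.0318, edgeR). At 24 h the IFN-γ wells had a lowest, median and highest level of 7.21, 11.5 and 16.7 CPM (70 counts), against 0, 0.487 and 1.20 CPM in saline (4 counts). The groups stood well apart, with a change of 4.23 ± 0.52 (adjusted p = 6.2e-08, edgeR). At 48 and 72 h Mlkl had 8 against 1 and 5 against 2 counts in the 10 wells and was not tested.

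Zbp1 (chr2:173206612-173218923, minus strand), the nucleic acid sensor, was close to undetected in saline wells. In NeuN− wells at 24 h the IFN-γ wells had a lowest, median and highest level of 0, 24.7 and 53.7 CPM (27 counts), and the 6 saline wells held 1 count, in a well at 14.8 CPM. The log2 change was 3.28 ± 1.07 (adjusted p = 0.0042, edgeR) and the ratio of pooled levels 15.2 (2.50 to 620), with 5 of 6 IFN-γ wells above every saline well. The NeuN+ IFN-γ wells of 24 h were 0, 4.28 and 5.53 CPM (24 counts) and all 6 saline wells were at 0 (adjusted p = 0.000199, edgeR). The pooled IFN-γ level was 9.97-fold that of a floor of 3 counts over the saline wells. Such folds over a floor leave out the counting error of the IFN-γ counts. Again 5 of 6 wells were above saline, and the part of non-neuronal RNA in the NeuN+ values was not tested. At the other times Zbp1 had at most 7 counts in the IFN-γ wells of a fraction and was not tested. The NeuN− call at 24 h was lost, with an adjusted p of 0.0103 to 0.0315 (edgeR), without any one of saline replicates 1, 2, 6, 9 and 10 or IFN-γ replicates 1 and 6. With the 2 saline wells of low Xist, which matched the IFN-γ wells in sex-linked RNA, the change was 5.08 (adjusted p = 0.046, edgeR) in NeuN− and 5.20 (adjusted p = 0.0117, edgeR) in NeuN+ wells, and neither was called.

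Ripk3 (chr14:55784995-55788865, minus strand), the kinase that activates MLKL, had 2 counts in all 84 wells, both in NeuN+ wells. The limit of 3 counts stood at 3.21 to 4.46 CPM in the NeuN− and 0.415 to 0.505 CPM in the NeuN+ IFN-γ groups, and at 6 h at 6.53 and 1.05 CPM in the saline groups. A change of Ripk3 within these limits was not detectable at this depth.

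**Figure D2:**
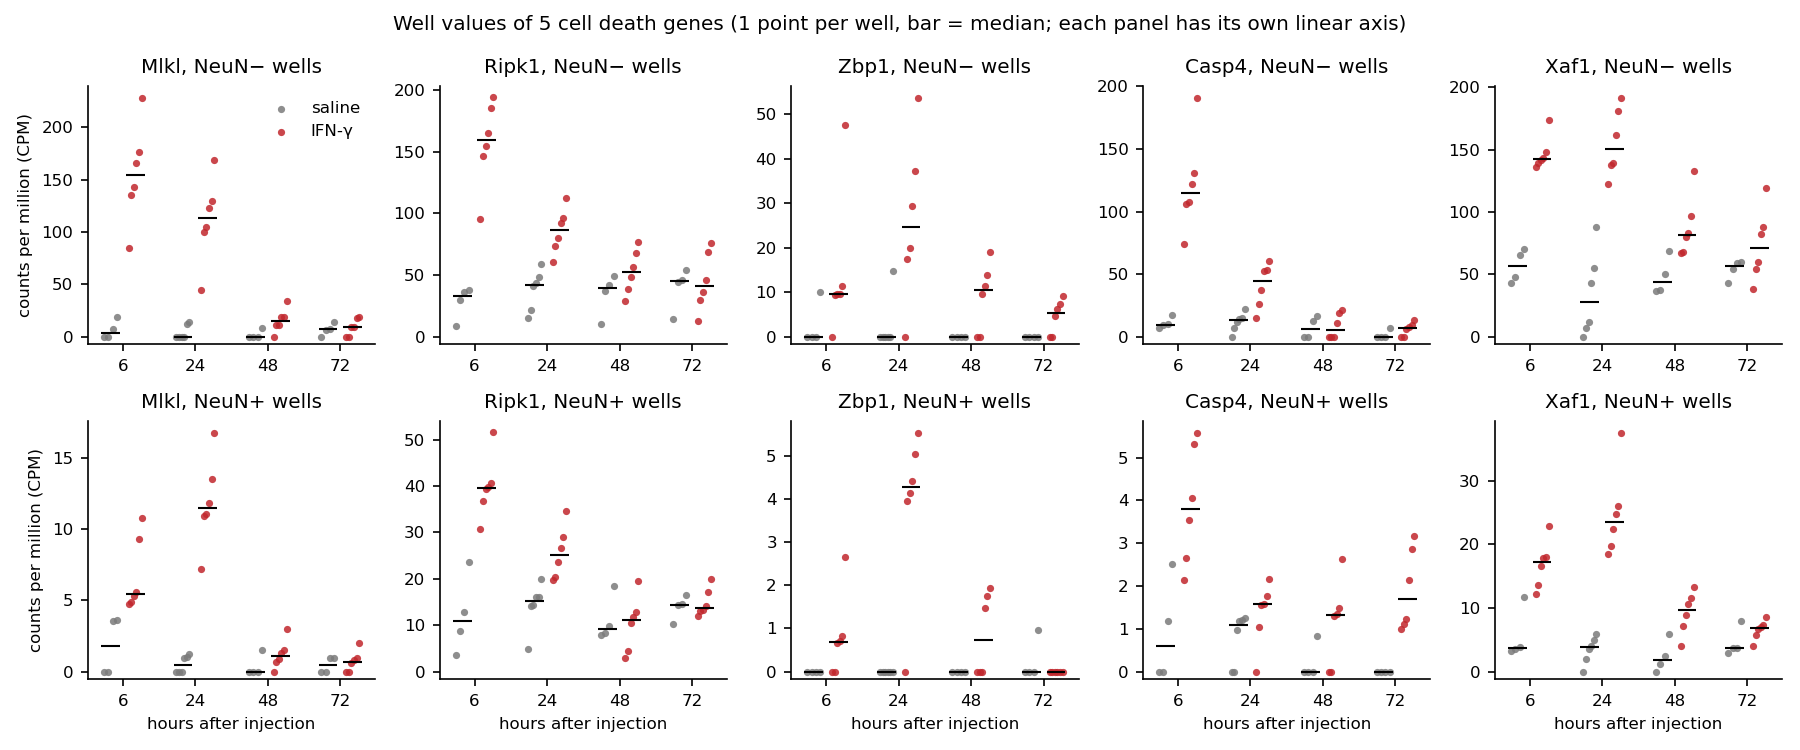
Level in CPM (linear axes) of 5 genes in each of the 84 wells, by hours after injection, with IFN-γ and saline wells in separate colours, NeuN− and NeuN+ wells in separate panels and a bar at each median. Mlkl in NeuN− wells is 84.8 to 228 CPM with IFN-γ at 6 h and 0 to 18.8 CPM at 72 h.

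Casp4 (chr9:5308828-5336783, plus strand) encodes the caspase that senses bacterial lipopolysaccharide inside the cell. Its NeuN− IFN-γ wells at 6 h were 74.2, 115 and 191 CPM (lowest, median and highest), and the saline wells were 7.25, 9.55, 10.0 and 17.1 CPM. The lowest IFN-γ well was above the highest saline well, with a change of 3.21 ± 0.50 (adjusted p = 8.05e-09, edgeR). By 24 h the IFN-γ wells were at 14.7, 44.7 and 60.3 CPM, against 0, 13.3 and 22.1 CPM in saline. The change of 1.57 ± 0.64 was not called (adjusted p = 0.065, edgeR), with 5 of 6 wells above saline. At 48 and 72 h Casp4 had 6 against 3 and 6 against 1 counts in NeuN− wells.

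The NeuN+ wells gave no call for Casp4. At 6 h IFN-γ wells ran from 2.15 to 5.58 CPM with a median of 3.81 CPM, and the saline wells were 0, 0, 1.17 and 2.52 CPM, a change of 1.71 ± 0.79 (adjusted p = 0.23, edgeR). Changes at 24 and 48 h were 0.85 ± 0.77 and 2.02 ± 1.28. At 72 h all 4 saline wells were at 0 and the IFN-γ wells ran from 0.999 to 3.18 CPM (14 counts), so that no wells overlapped. The pooled level was 2.53-fold that of the floor of 3 counts over the saline wells, and the change had an adjusted p of 0.0567 (edgeR).

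Casp1 (chr9:5298517-5307265, plus strand), the inflammasome caspase, had 67 counts in all wells. In NeuN− wells it changed by 0.22 ± 0.97 at 24 h and by 1.81 ± 1.11 at 48 h (adjusted p = 0.541, edgeR). At 72 h it had 9 counts in IFN-γ and 0 in saline wells, a pooled level at least 1.92-fold higher, and was not tested. Gsdmd (chr15:75862327-75867408, plus strand), which encodes the pore former of pyroptosis, had 40 counts and did not reach 10 in any IFN-γ comparison. Its largest contrast was 9 against 0 counts in NeuN+ wells at 24 h, a pooled level 3.74-fold that of the saline floor.

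Xaf1 (chr11:72301629-72313733, plus strand), which encodes the antagonist of XIAP, was called in both fractions at both early times. In NeuN− wells at 6 h the IFN-γ wells were 136, 142 and 174 CPM (lowest, median and highest), and the saline wells were 42.8, 47.7, 65.3 and 69.97 CPM. The groups did not overlap, with a change of 1.30 ± 0.31 (adjusted p = 0.000634, edgeR). At 24 h the IFN-γ wells were 123, 151 and 191 CPM, against 0, 27.7 and 88.0 CPM in saline. The change was 2.16 ± 0.35 (adjusted p = 1.37e-08, edgeR). At 48 h values of 66.9 to 133 CPM overlapped the saline wells at 36.3, 37.5, 50.5 and 68.8 CPM, a change of 0.97 ± 0.36 (adjusted p = 0.168, edgeR). At 72 h the change was 0.43 ± 0.34 (adjusted p = 0.806, edgeR).

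In NeuN+ wells Xaf1 at 6 h had a lowest, median and highest IFN-γ level of 12.2, 17.2 and 22.9 CPM, and the saline wells were 3.22, 3.61, 3.79 and 11.7 CPM. The change was 1.42 ± 0.36 (adjusted p = 0.0086, edgeR). This call was lost, with an adjusted p of 0.0125 to 0.105 (edgeR), without any one of saline replicates 5, 7 and 8 or IFN-γ replicates 7, 10, 11 and 12. It was also lost with DESeq2 (adjusted p = 0.0347), in 1 edgeR fit of the fraction (adjusted p = 0.0229) and, at the limit, with filterByExpr (adjusted p = 0.01, edgeR). At 24 h the IFN-γ wells were 18.4, 23.5 and 37.5 CPM against 0, 3.80 and 5.94 CPM in saline, far outside the saline range, and the change was 2.76 ± 0.30 (adjusted p = 1.03e-08, edgeR). At 48 h values of 4.05 to 13.4 CPM overlapped 0, 1.23, 2.52 and 5.97 CPM in saline, and the change of 2.07 ± 0.56 was not called (adjusted p = 0.0693, edgeR). At 72 h it was 0.38 ± 0.40.

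Fas and Casp8 had few counts in both fractions. Fas (chr19:34290666-34327772, plus strand), the death receptor, had in NeuN− wells at 24 h a lowest, median and highest IFN-γ level of 8.70, 17.5 and 44.2 CPM (17 counts), and the 6 saline wells held 1 count, in a well at 6.86 CPM. No well overlapped, but the change of 2.69 ± 1.19 was not called (adjusted p = 0.0517, edgeR) and the ratio of 9.54 ran from 1.49 to 399. At 72 h the order was the opposite, with 2 counts in the 6 IFN-γ and 6 in the 4 saline wells, and it was not tested. Casp8 (chr1:58795374-58847503, plus strand), the initiator caspase of apoptosis that also cleaves RIPK1 and RIPK3, was not called in any comparison with IFN-γ. Its changes in NeuN− wells were 0.82 ± 0.90 at 6 h, 1.72 ± 1.03 at 24 h, 0.53 ± 0.74 at 48 h and 3.06 ± 1.13 at 72 h (19 against 1 counts, adjusted p = 0.0965, edgeR). In NeuN+ wells at 48 h it had 16 against 1 counts and a change of 2.77 ± 1.21 (adjusted p = 0.299, edgeR).

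**Figure D3:**
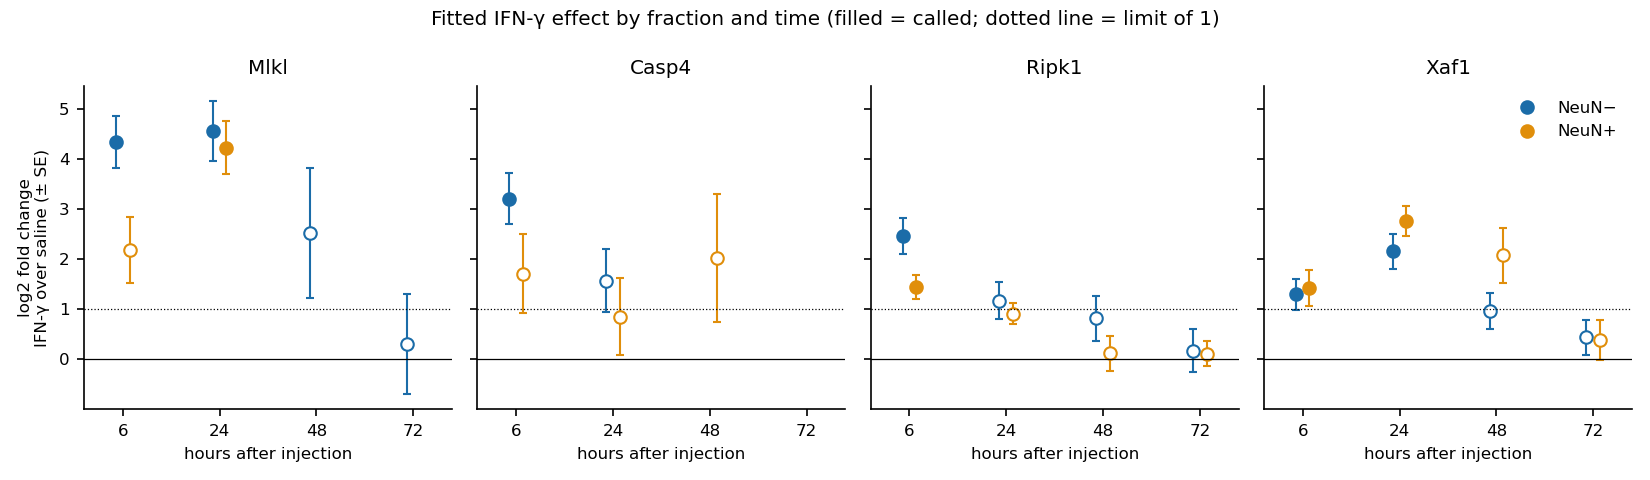
Log2 fold change of IFN-γ over saline wells by hours after injection for Mlkl, Casp4, Ripk1 and Xaf1 in NeuN− and NeuN+ wells, with standard errors as bars, filled points where the change was called and a dotted line at the limit of 1. The called values lie at 6 and 24 h, from 1.30 for Xaf1 to 4.57 for Mlkl, both in NeuN− wells.

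Whether the NeuN+ and NeuN− fractions differed in their response was tested by the interaction of NeuN and IFN-γ at each time. Of 8, 9, 8 and 7 genes tested at 6, 24, 48 and 72 h, 0 were called by edgeR and 0 by DESeq2, where 0.822%, 1.76%, 0.0523% and 0.199% of all genes tested were called by edgeR. An unadjusted p under 0.05 was found for 1, 1, 0 and 1 of them. Over all genes the calls at 24 h split into 158 above 0 and 156 below, and into 124 and 201 with scaling factors from all genes tested. At 6 h the log2 change of Mlkl in NeuN+ wells less that in NeuN− wells was −2.17 ± 0.85 (SE) between the separate fits and −2.43 in the joint fit, whose test did not pass even unadjusted (p = 0.0524, adjusted p = 0.429, edgeR). For Ripk1 the difference was −1.03 ± 0.43 (95% interval −1.87 to −0.18, not adjusted over genes, adjusted p = 0.283, edgeR). Casp4 followed at −1.50 ± 0.94 (adjusted p = 0.656, edgeR). The gene at an unadjusted p under 0.05 at 24 h was Gsdmd (adjusted p = 0.275, edgeR). At 72 h it was Casp8, with a difference of −2.84 ± 1.46 (adjusted p = 0.548, edgeR). A p that misses the limit does not show that the fractions act alike. At 24 h the difference for Mlkl was −0.34 ± 0.80 (−1.90 to 1.22) and for Xaf1 0.60 ± 0.46 (−0.30 to 1.51). For Xaf1 at 6 h it was 0.12 ± 0.48 (−0.81 to 1.06).

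The change of the response over time was tested between 6 and 24 h and between 24 and 72 h, with saline wells of each time. Of the 9 genes tested in each, 1 was called, Xaf1 in NeuN+ wells between 24 and 72 h, where 0.623% of all genes were called. Its log2 change fell by 2.38 (95% interval −3.37 to −1.39, adjusted p = 0.0074, edgeR). The call was lost without any one of saline replicates 8 and 11 of 24 h and 6, 7 and 8 of 72 h, or IFN-γ replicates 7, 9 and 10 of 24 h and 7 and 12 of 72 h, with an adjusted p of 0.0104 to 0.165 (edgeR) and a difference of −1.91 without saline replicate 8 of 72 h. In 1 fit of the fraction it was not called (adjusted p = 0.0101, edgeR). Ripk1 had a difference of −0.80 ± 0.32 and Mlkl a fitted one of −3.90, while that of Casp4 was 3.35, with adjusted p-values of 0.234, 0.237 and 0.272 (edgeR), and the adjusted p of Zbp1 was 0.0964 (edgeR). From 24 to 72 h in NeuN− wells 0 were called by edgeR and 0 by DESeq2, with 4 at an unadjusted p under 0.05, where 2.76% of all genes were called. There Mlkl had a difference of −4.28 ± 1.17 (adjusted p = 0.0283, edgeR) and Xaf1 one of −1.72 ± 0.49 (adjusted p = 0.0221, edgeR), so both missed the limit. Fas, with few counts, was as near the limit (fitted difference −4.60, adjusted p = 0.0274, edgeR), while Casp1 had a fitted difference of 3.39 in the opposite direction (adjusted p = 0.254, edgeR). The other 5 had an adjusted p of 0.439 to 0.988 (edgeR). Between 6 and 24 h 0 of 9 were called in NeuN− and 0 of 9 in NeuN+ wells by edgeR, and 0 by DESeq2, with 1 in each at an unadjusted p under 0.05, where 1.75% and 0.373% of all genes were called. Ripk1 in NeuN− wells had a difference of −1.30 ± 0.51 (adjusted p = 0.287, edgeR) and Xaf1 in NeuN+ wells one of 1.34 ± 0.47 (adjusted p = 0.295, edgeR). Mlkl in NeuN+ wells had the lowest adjusted p of the other 8, at 2.05 ± 0.85 (adjusted p = 0.495, edgeR). Since each time had its own mice, time and mice cannot be told apart.

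Other genes of these routes were read from 7 lists with 104 further genes, of which 102 were in the table. In NeuN− wells 7 of 58 tested were called higher at 6 h, 8 of 60 at 24 h, 2 of 51 at 48 h and 2 of 57 at 72 h, where 3.21%, 3.43%, 0.603% and 0.429% of all genes tested were. In NeuN+ wells these counts were 5 of 74, 6 of 79, 0 of 76 and 0 of 78, where 0.774%, 1.31%, 0.126% and 0.249% of all genes were, and none was called lower in any of the 8 comparisons. At 6 and 24 h the counts were highest in the list of necroptosis genes and their triggers, which holds 14 genes with Ripk1, Ripk3, Mlkl and Zbp1 among them. In that list 5 of 11 tested were higher at 6 h and 6 of 12 at 24 h in NeuN− wells, with median log2 changes of 1.33 and 1.62. The counts were 5 of 11 and 6 of 13 in NeuN+ wells, with medians of 1.65 and 1.30. These counts include calls of Mlkl, Ripk1 and Zbp1 that are given above. They also include the RNA sensors Ifih1, Ddx58 and Eif2ak2, which were called in both fractions at 6 and 24 h. Ifih1, which encodes MDA5, changed by 4.45 ± 0.44 at 6 h in NeuN− and 4.66 ± 0.26 at 24 h in NeuN+ wells. Tlr3, the endosomal sensor of double-stranded RNA, was called in NeuN+ wells, by 3.0 ± 0.50 at 6 h and 2.44 ± 0.46 at 24 h.

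Brakes on these routes stood in the lists of RIPK1 partners and of the Bcl-2 family. Among 25 adaptors, ubiquitin editors and brakes of RIPK1, 20 and 24 were tested at 6 h in NeuN− and NeuN+ wells and 21 and 24 at 24 h. Cflar, which encodes the caspase-8 inhibitor cFLIP, was called in NeuN− wells at 6 h and no other was called among these, so that 1 of 20 stood beside 3.21% of all genes. It changed by 1.39 ± 0.36 (adjusted p = 0.0015, edgeR), and was not called with DESeq2 (adjusted p = 0.013) or without saline replicate 4 (adjusted p = 0.0167, edgeR). The median log2 change of the list was 0.16 in NeuN− and 0.098 in NeuN+ wells at 6 h. Of the 19 genes of the Bcl-2 family, 0 of 11 tested were called in NeuN+ wells at 6 h and 0 of 11 at 24 h. There 0.774% and 1.31% of all genes were called higher, and the median log2 changes of the list were 0.060 and 0.41. In NeuN− wells 1 of 7 tested was called at 6 h and 2 of 4 at 24 h, where 3.21% and 3.43% of all genes were called higher. The medians of these few tested genes were 0.61 and 1.60. Mcl1, an inhibitor of mitochondrial apoptosis, was 67.8 to 111 CPM with IFN-γ and 8.56 to 60.0 CPM in saline at 6 h, a change of 1.61 ± 0.42 (adjusted p = 0.00193, edgeR), and changed by 1.99 ± 0.51 at 24 h (adjusted p = 0.00081, edgeR). The 6 h call was lost with DESeq2 (adjusted p = 0.0228) and without any one of saline replicates 1, 2 and 4 (adjusted p = 0.01 to 0.0321, edgeR), and the 24 h call without saline replicate 9 (adjusted p = 0.0161, edgeR). Bcl2, another inhibitor of mitochondrial apoptosis, was called in NeuN− wells at 24 h, from 55.1 to 144 CPM in saline to 161 to 238 CPM with IFN-γ and a change of 1.21 ± 0.24 (adjusted p = 1.19e-05, edgeR). Without the saline wells of high Xist it was 0.56 (adjusted p = 0.291, edgeR). Of the inflammasome sensors and adaptors, Nlrp1b was called in NeuN− wells at 72 h, by 2.57 ± 0.57 (adjusted p = 0.000819, edgeR, but 0.0749 with DESeq2), and no other was called in the 8 comparisons. Casp12, beside Casp4 in the family, rose by 4.00 ± 0.91 in NeuN− wells at 6 h (adjusted p = 2.58e-05, edgeR).

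The single nuclei, all of 48 h, placed these genes in cell classes. The libraries held 1016 saline and 2574 and 1109 IFN-γ nuclei, with medians of 14645.5, 9404.5 and 11767 UMIs per nucleus, and 0 cell barcodes were shared between libraries. About 70% of the sorted nuclei were NeuN+ by the study's methods, so the shares of the classes were set by the sort. Clusters were named from marker genes, with the 10 genes left out of the clustering. No name was given to 4 clusters with 426 nuclei (52 saline, 273 and 101 IFN-γ), which entered no class. With 1 saline library there is no test, and the intervals below cover counting error alone. A gene was past the fold limit when its CPM was more than 2 times the saline level in both IFN-γ libraries, given at least 10 UMIs in the class.

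In oligodendrocyte-like nuclei (191 saline, 744 and 306 IFN-γ nuclei) 3 of 4 genes measured were past the limit, as were 5.98% of all genes measured. Mlkl had 1 UMI in the saline library and 63 and 36 in the IFN-γ libraries, or 1.44 CPM (0.0365 to 8.02) against 23.3 (17.9 to 29.8) and 24.9 CPM (17.5 to 34.5). Xaf1 stood at 28.8 CPM (17.6 to 44.5) in saline and at 117 (104 to 130) and 150 CPM (130 to 171) with IFN-γ. Both IFN-γ libraries lay above the saline interval for both genes. The share of nuclei with an Xaf1 UMI was 9.42% in saline and 33.2% and 44.1% with IFN-γ, and 6.59%, 19.7% and 24.0% once each nucleus was thinned to 2000 UMIs. In GABA neuron-like nuclei that share was 3.15%, 2.61% and 2.29%, at medians of 17911.5, 15525 and 19033.5 UMIs per nucleus, against 3383, 3445.5 and 4201.5 in oligodendrocyte-like nuclei. Nuclei with a Mlkl UMI were 0.524%, 6.99% and 9.48% of oligodendrocyte-like nuclei, and 0%, 4.24% and 5.0% after thinning, while astrocyte-like nuclei held 0 Mlkl UMIs. Zbp1 had 0, 19 and 12 UMIs in oligodendrocyte-like nuclei, or 0, 7.04 and 8.31 CPM. Ripk1 was level, at 27.4, 35.2 and 31.9 CPM. Casp4, Casp8, Gsdmd and Fas had 0 UMIs there in all 3 libraries, where the limit of 3 counts stands at 1.57%, 0.403% and 0.98% of nuclei with a UMI. The class had 3 clusters, and one of 331 nuclei held 0 saline, 214 and 117 IFN-γ nuclei and was led by the interferon-induced genes Gbp2, Iigp1 and Gm12250, while the other clusters held 116 saline, 309 and 92 IFN-γ nuclei and 75 saline, 221 and 97 IFN-γ nuclei.

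Microglia-like nuclei (31 saline, 49 and 54 IFN-γ nuclei) held UMIs of Casp1, Casp4, Casp8 and Gsdmd. Of 7 genes measured 2 were past the limit, Casp4 and Zbp1, as were 14.5% of all genes measured. Casp4 had 1, 17 and 28 UMIs, or 11.9 CPM (0.301 to 66.3) against 86.8 (50.6 to 139) and 121 CPM (80.1 to 174). The second IFN-γ library lay above the saline interval and the interval of the first overlapped it. Casp4 UMIs were found in 3.23%, 22.4% and 33.3% of nuclei, and in 3.85%, 15.2% and 11.5% after thinning. Zbp1 had 1, 9 and 20 UMIs, or 11.9, 45.9 and 86.1 CPM. Casp8 was 238 CPM in saline and 189 and 194 CPM with IFN-γ, Gsdmd 71.4, 76.6 and 73.2 CPM, and Casp1 47.6, 71.5 and 56.0 CPM. Ripk1 stood at 107, 76.6 and 68.9 CPM and Xaf1 at 23.8, 61.3 and 47.3 CPM. Mlkl had 0, 2 and 1 UMIs. The class summed to 383 to 953 CPM of 9 markers of monocytes and border macrophages and to 0 to 17.2 CPM of 9 markers of T and NK cells. The part of these cells in the levels was not tested.

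Astrocyte-like nuclei (21 saline, 136 and 37 IFN-γ) had 1 of 3 genes past the limit, Xaf1, with 0, 16 and 6 UMIs or 0, 24.6 and 25.8 CPM, as were 10.8% of all genes measured. Fas, with 3, 6 and 3 UMIs, was 27.5, 9.22 and 12.9 CPM, and Mlkl had 0 UMIs. In VGLUT2 neuron-like nuclei (268, 827 and 255) 1 of 3 was past the limit, as were 2.54% of all genes measured, namely Xaf1 at 1.11, 3.21 and 3.11 CPM. In dopamine neuron-like nuclei (167, 124 and 94) 1 of 2 was, as were 1.57%, again Xaf1 with 2, 5 and 4 UMIs. In GABA neuron-like nuclei (286, 421 and 262) it was 0 of 2, against 1.92%. Ripk1 in the 3 neuron classes ran from 7.63 to 14.0 CPM over all libraries. Mlkl had 0 to 5 UMIs per library in each neuron class, and Ripk3 had 1 UMI in all nuclei.

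**Figure D4:**
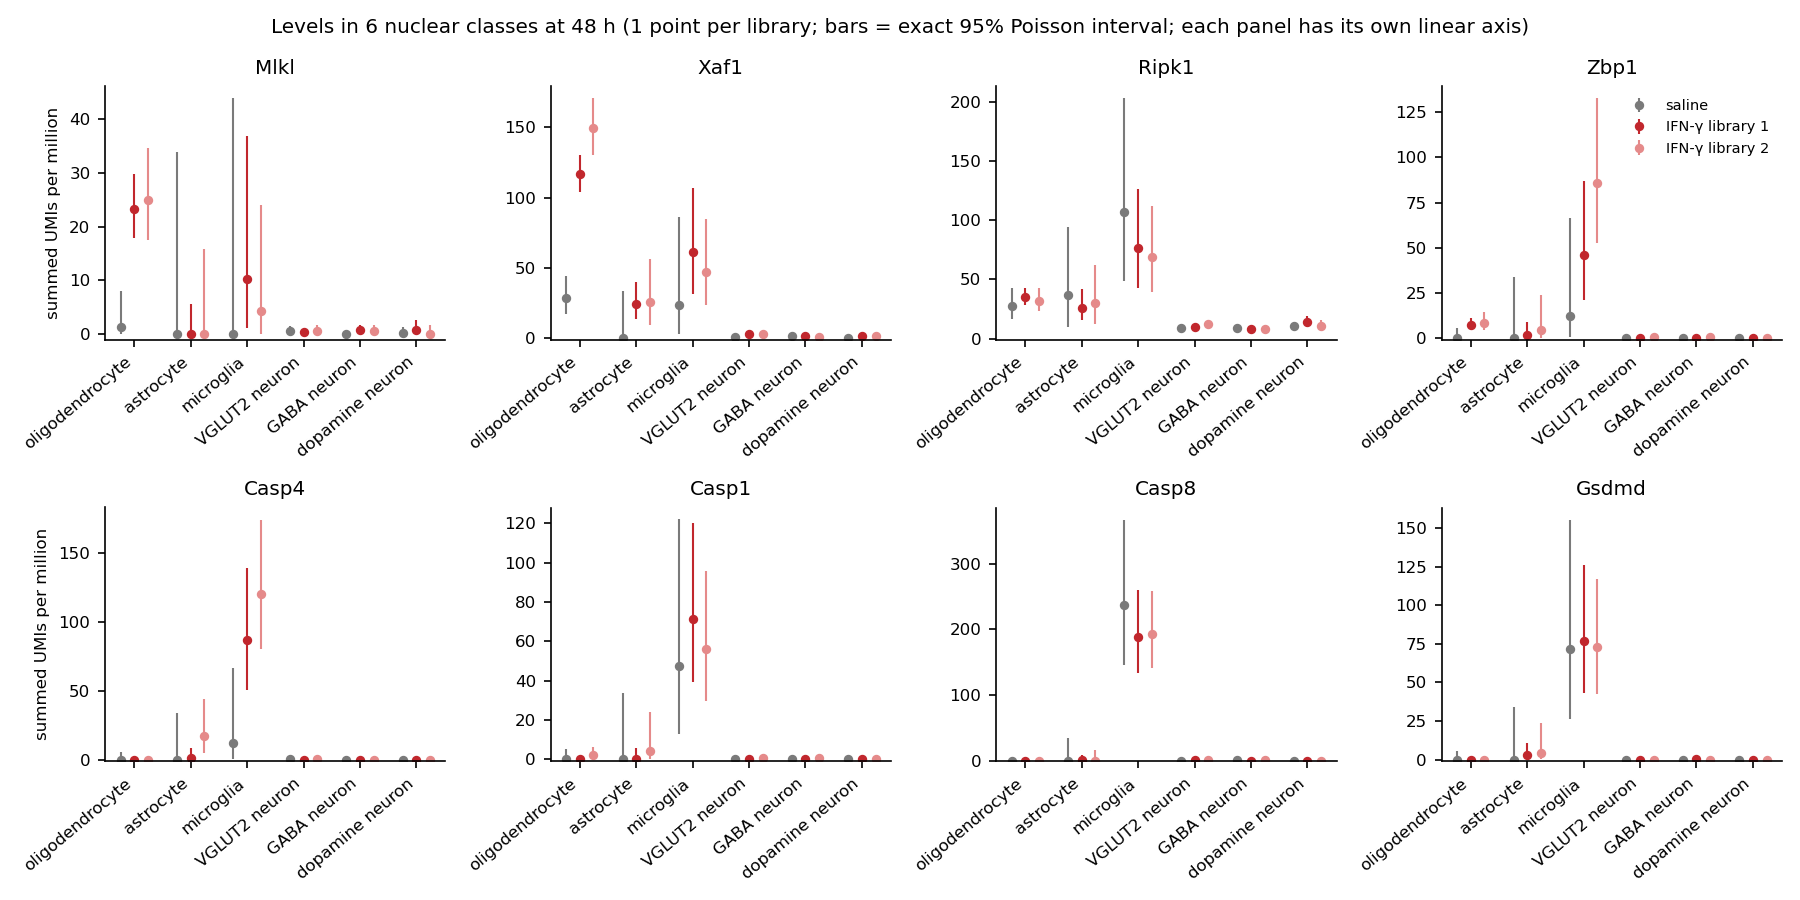
Level in CPM of 8 genes in 6 classes of nuclei at 48 h, with 1 saline and 2 IFN-γ libraries in separate colours and exact 95% Poisson intervals as bars. Mlkl reaches 23.3 and 24.9 CPM in oligodendrocyte-like nuclei, and Casp4 reaches 86.8 and 121 CPM in microglia-like nuclei.

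The genes differed in which others followed the same pattern. Over the 16 groups of fraction, treatment and time, mean log2(CPM + 1) was correlated between each gene with at least 100 counts and 12402 genes. The points share wells, depth and mice, so the values are descriptions. Mlkl was most like Dtx3l (Pearson r = 0.971), Irf2 (0.963) and Rnf213 (0.953). Xaf1 was most like Eif5 (0.959), Cd86 and Ctsc, Casp4 like Rbbp6 (0.957), Sf3b3 and Gab2, and Ripk1 like Gna13 (0.953), Clec2d and Lamp2. Casp8 was most like Elf4 (0.914), Arhgap15 and Rps3a1. Among the genes themselves, r was 0.880 between Mlkl and Ripk1 and 0.485 between Mlkl and Casp8.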

How the data were processed

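Per the labels and the study's methods, the authors aligned reads to GRCm38 (Gencode vM10) with STAR, corrected barcodes, collapsed molecular identifiers and deposited unnormalized counts for 84 bulk wells and for single nuclei (10x 3′ v3), whose introns were counted and whose doublets the authors had removed. The STAR version is not given in the sources used here. Wells held 20962 to 1684374 counts. Of 186 pairs of wells of 1 group, 0 were identical. Gene positions come from Gencode vM21 on GRCm38.

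Bulk counts were tested in R 4.3.3 with edgeR 4.0.16 (limma 3.58.1; quasi-likelihood F test) for genes with at least 10 counts over the wells compared, with TMM factors from genes passing filterByExpr, a choice made after simulated counts showed false calls between fractions of unequal depth. Genes were called where the log2 change exceeded 1 with an adjusted p under 0.01 over all genes. Each fraction and time was fitted on its own. Standard errors are left out where a group was at 0. Interaction sizes are differences of the fitted effects of both fractions or times. Alternatives were DESeq2 1.42.0, RLE factors, other filters, saline wells of all times, 1 fit of a fraction, thinned NeuN+ wells and, well by well, the fit without it. TMM factors from all genes, total-count sizes and 24 h wells of low Xist were added after the data were seen.

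Nuclei were clustered in Python 3.11.15 with scanpy 1.11.5 and leidenalg 0.10.2 (2000 variable genes, 30 components, 15 neighbours, Leiden resolution 1) and summed per class and library, with a prior count of 0.5. No further doublet caller was run. Transgene rows (5) were left out. Intervals at 95% are exact and floors are 3 counts over a group, for counting error only. The fits were tested on simulated data.

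The genes and lists were chosen with earlier results of these data known. By rule all 10 genes are named in each comparison, list genes only where called, up to 4 a comparison by adjusted p, and for likeness the 3 genes of highest correlation. In tests of differences between fractions or times the genes farther from the limit are not all named. Cflar and Mcl1 were named after their values were seen.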

Additional observations from a re-analysis of the deposited data

Results flagged for a closer look

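Over 51 groups of 4 to 6 wells with at least 10 counts, the gap of the highest or lowest well to its neighbour passed Dixon's limit in 4, where chance gives about 1 in 20. Xaf1 had a saline well at 11.7 CPM in NeuN+ nuclei at 6 h and one at 7.94 CPM at 72 h, each the highest of 4. In NeuN− nuclei at 6 h the highest IFN-γ well of Xaf1 was at 174 CPM. Zbp1 had 1 NeuN+ IFN-γ well of 24 h at 0 CPM, below the other 5.

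The response to IFN-γ differed between groups by the test of the difference itself for 6 pairs of gene and contrast (edgeR, adjusted over all genes). Adar, which encodes an RNA editing enzyme, had a log2 change at 24 h in NeuN+ wells less that in NeuN− wells of −1.50 (adjusted p = 0.00208, edgeR), and of −1.06 with NeuN+ wells thinned (adjusted p = 0.248, edgeR). Without NeuN− saline replicate 9 it was −1.43 (adjusted p = 0.0116, edgeR). Bcl2 in NeuN− wells had a change at 72 h less that at 24 h of −1.62 (adjusted p = 0.000276, edgeR). In NeuN+ wells the same difference was −2.38 for Xaf1, −4.54 for Ifih1, −2.66 for Eif2ak2 and −2.41 for Ddx58, with adjusted p-values (edgeR) of 0.0074, 9.44e-06, 0.00149 and 0.00192. Without 1 saline well of 72 h the call of Eif2ak2 was lost for replicates 5, 6 and 8 (adjusted p = 0.0174 to 0.0256, edgeR) and that of Ddx58 for replicate 8 (adjusted p = 0.0862, edgeR). The mice of 24 and 72 h were not the same, and the wells of 24 h differed among themselves in Xist, so time and mice cannot be told apart.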

How the results depend on the processing

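Of 1249 alternative values of genes named as called, 1189 stayed past the limit, 60 did not and 0 turned sign. Of 2096 for the 10 genes where not called, 11 passed the limit and 79 turned sign, none both. With filterByExpr, which tests fewer genes, the count called higher was 1 in NeuN− and 1 in NeuN+ wells at 24 h, 1 in NeuN+ wells at 6 h and 2 in saline wells of NeuN− against NeuN+, and none was left to test in NeuN− wells at 48 and 72 h. With saline wells of all times it was 5 in NeuN− wells at 24 h and 4 in NeuN+ wells at 6 h. In NeuN+ wells at 6 h DESeq2 and 1 fit of the fraction gave 1 each, and that fit gave 0 between 24 and 72 h. Where these alternatives keep the genes tested, the cause was not tested. Leaving out 1 well gave 4 to 4 in NeuN− wells at 6 h, 2 to 4 at 24 h, 1 to 2 and 3 to 4 in NeuN+ wells, 6 to 7 in saline wells, and 0 to 1 between 24 and 72 h in each fraction. In nuclei, a prior count of 2 gave 0 genes in astrocyte-like and 1 in microglia-like nuclei. Leiden resolutions of 0.5 and 2 gave 1 each in GABA neuron-like nuclei, and no minimum gave 1 there and 2 in VGLUT2 neuron-like nuclei. Leaving out 1 IFN-γ library gave 0 to 1 in astrocyte-like, 2 to 3 in microglia-like and 0 to 0 in dopamine neuron-like nuclei, where fewer UMIs remained than the minimum. Scaling by RLE or total counts moved the median over all genes by at most 0.08.

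No paired analysis was possible because the labels give no pairing of wells or mice. Few counts per NeuN− well limit all the genes, also Ripk1 and Xaf1, which had the most counts in NeuN− saline wells (69 and 94 over 18 wells).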

Other observations

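Some list genes were called at the late times, each with an exception among the alternatives. Eif2ak2, a kinase activated by double-stranded RNA, was 38.6 to 98.1 CPM in NeuN− IFN-γ wells at 48 h and 0 to 19.7 CPM in saline wells, and Ddx58, which encodes RIG-I, was 19.1 to 56.9 CPM where all 4 saline wells were at 0. With DESeq2 the adjusted p of Eif2ak2 was 0.0435, and with saline wells of all times that of Ddx58 was 0.0287 (edgeR) at a change of 1.57. Eif2ak2 was also lost without saline replicate 1 or IFN-γ replicate 1 (adjusted p = 0.037 and 0.0116, edgeR). At 72 h Ifih1 stood at 18.1 to 54.7 against 0 to 7.44 CPM, and with DESeq2 its adjusted p was 0.321, while that of Nlrp1b was 0.0749. Without 1 well Ifih1 was lost in 7 of 10 fits (adjusted p = 0.0152 to 0.0574, edgeR), each without one of saline replicates 1 to 4 or IFN-γ replicates 1, 3 and 6, and Nlrp1b without saline replicate 3 or 4 (adjusted p = 0.0136 and 0.0141, edgeR).

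In saline wells 24 of 86 list genes tested were higher in NeuN− and 4 in NeuN+ wells, where 12.6% and 14.9% of all genes tested were. Ninj2, of the family of NINJ1, which ruptures the membrane of dying cells, was 110 to 295 CPM in NeuN− and 3.79 to 19.8 CPM in NeuN+ wells, a log2 difference of 4.14 ± 0.14 (adjusted p = 8.44e-46, edgeR). Il18, a cytokine matured by caspase-1, differed by 3.66 ± 0.25 (adjusted p = 2.99e-24, edgeR), Nek7, a partner of the NLRP3 inflammasome, by 2.44 ± 0.12 (adjusted p = 2.33e-33, edgeR), and Bcl2l1, an inhibitor of apoptosis, by 2.35 ± 0.10 (adjusted p = 2.81e-36, edgeR).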
